A study of Oryza sativa with 16 samples.

Results

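The regions described here are the stretches of open chromatin that lie near the centromeres of the 12 rice chromosomes. Peaks of 7 lists were merged wherever they overlapped or touched, and a merged region belonged to the set when its midpoint lay within 1 Mb of the centromere position of its chromosome on IRGSP 1.0. This rule uses position only. It took 6700 of the 119009 regions (5.63%), which together spanned 6.91 Mb. The centromere positions, rounded to 0.1 Mb, were 16.7 Mb on chromosome 1, 13.6 on chromosome 2, 19.4 on chromosome 3, 9.70 on chromosome 4, 12.4 on chromosome 5, 15.3 on chromosome 6, 12.1 on chromosome 7, 12.9 on chromosome 8, 2.80 on chromosome 9, 8.20 on chromosome 10, 12 on chromosome 11 and 11.9 on chromosome 12. The farthest region inside the limit had its midpoint 999.9 kb away, on chromosome 12, and the nearest outside it lay at 1000.3 kb, on chromosome 10. Both had a peak in all 7 lists.

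Open chromatin had been isolated by FAIRE-seq, which sequences the DNA that stays free of crosslinked protein, from seedlings of the Japonica cultivar Nipponbare at an age of 14 days. Control plants stayed at 28 °C. Cold-treated plants were held at 4 °C for 12 h or 24 h, heat-treated plants at 42 °C for 30 min or 3 h, and salt-treated plants received 250 mM NaCl for 2 h or 6 h. Each of the 7 conditions had 2 replicates but a single deposited list of peaks, so no value below has a replicate error.

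A plant centromere is the site where the kinetochore forms, on nucleosomes that carry the histone variant CENH3. In rice the core holds arrays of the CentO satellite and centromeric retrotransposons, and it is flanked by gene-poor, repeat-rich heterochromatin in which DNA methylation and H3K9 methylation are high. The core on chromosome 8 is known for its short satellite array and for transcribed genes within it. Reads that map to several places were removed by the authors through a limit on the mapping score, so that repeats shared between centromeres could contribute few peaks. How much of each window could be mapped was not tested, and no gene or sequence of this genome build was used here.

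Without stress, the windows were not devoid of open chromatin. Control peaks covered 20.5% of the bases within 1 Mb of the centromere positions, against 21.3% from 1 to 2 Mb, 19.1% from 2 to 5 Mb and 23.3% farther out, where each chromosome was taken to end at its last peak. Merged regions numbered 279 per Mb near the centromere, 309 per Mb from 1 to 2 Mb, 288 per Mb from 2 to 5 Mb and 332 per Mb beyond 5 Mb. By number of regions, the sparsest of the 100 kb bins up to 5 Mb were the innermost. In the first 100 kb on either side there were 219.6 regions per Mb and 16.7% of the bases were covered by control peaks, and in the next 100 kb these values were 245 per Mb and 18.0%. Control coverage was just as low farther out, with 16.7% from 2900 to 3000 kb. The other 8 bins of 100 kb inside the limit held between 273 and 312 regions per Mb. All 7 lists followed this profile up to 1 Mb, with heat 3 h and salt 6 h below the other 5 in each of these bins.

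**Figure D1:**
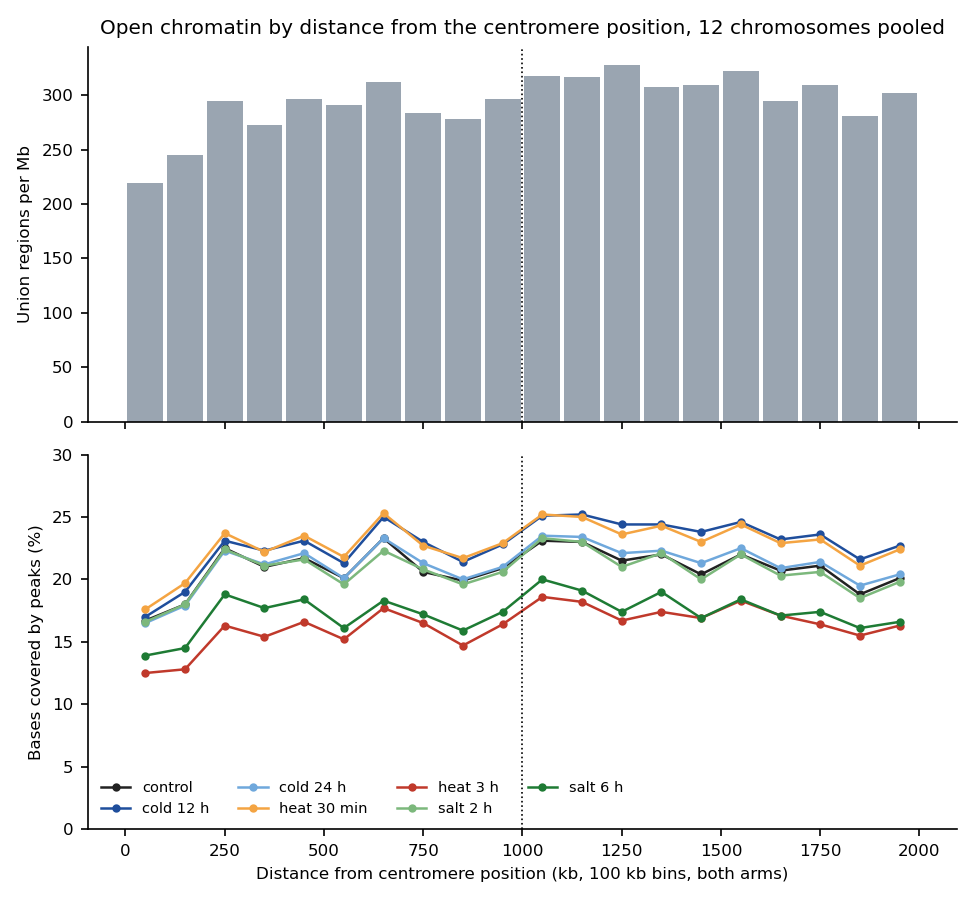
Union regions per Mb (upper panel) and percentage of bases covered by the peaks of each of the 7 lists (lower panel) in 100 kb bins of distance from the centromere position, both arms and 12 chromosomes pooled; the dotted line marks the limit of 1 Mb. The first bin has 219.6 regions per Mb and is the lowest of those plotted, and control coverage there is 16.7%.

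The windows differed between chromosomes. The number of regions ran from 422 on chromosome 4 to 676 on chromosome 12, with a median of 556, and control coverage from 15.7% to 24.5% on the same chromosomes. Chromosome 11 was uneven, with 343 regions on the lower-coordinate side and 161 on the other. Of the 240 bins of 100 kb, the median bin held 30.5 regions and 19 bins held under 10. Counting bins from the centromere position, no region at all lay in the bin from -600 to -500 kb of chromosome 4, from -100 kb to the centromere position of chromosome 7, or from 400 to 500 kb of chromosome 11. The fullest bin, with 47 regions, was only 300 to 400 kb from the position on chromosome 9. Sparse and dense bins thus stood side by side in the same window.

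**Figure D2:**
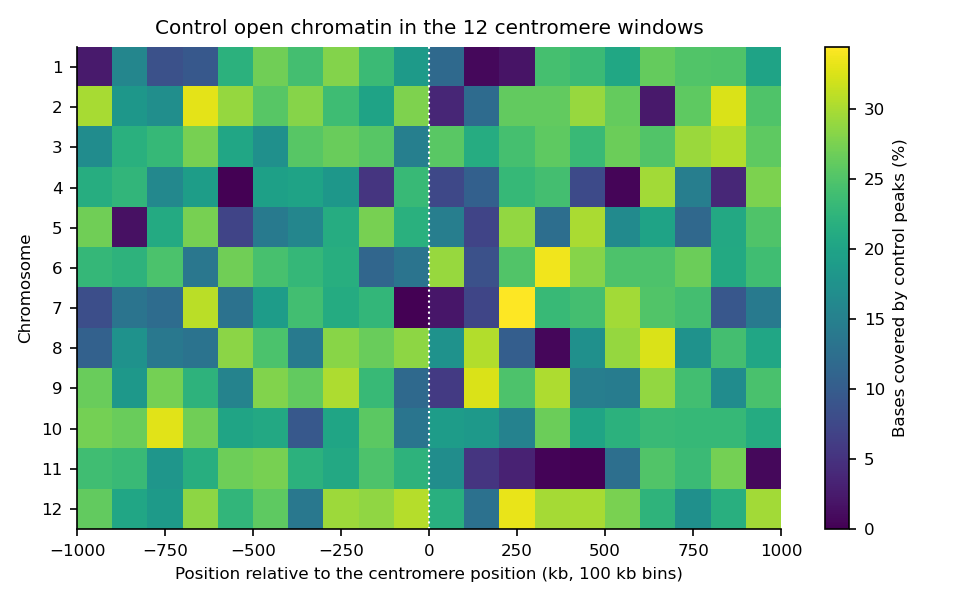
Percentage of bases covered by control peaks in 100 kb bins (columns, position relative to the centromere position in kb) of the 12 centromere windows (rows). Dark cells hold little open chromatin, as on chromosome 7 just before the position and on chromosome 11 between 200 and 500 kb after it.

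Within the windows, the longest stretch without a peak in any list was 201 kb on chromosome 11, between 12352952 and 12553747. The next was 144 kb on chromosome 7, between 11969751 and 12113744, and it contained the centromere position. A stretch of 128 kb on chromosome 9, between 2748996 and 2876703, also contained it, which was the case for 2 of the 12 windows. Chromosome 2 had its longest stretch, of 95.5 kb, starting 7.45 kb after the position. On 4 chromosomes, which were 2, 7, 9 and 11, the longest stretch of the window was longer than any elsewhere on the chromosome. The median of the longest stretches was 86.7 kb in the windows and 98.5 kb elsewhere, although each window is much shorter than the rest of its chromosome. The windows held 44 of the 382 stretches of at least 30 kb, or 11.5%, and 6.43% of all bases. Chromosome 8 had its longest stretch of 81.9 kb at 353 to 435 kb, away from the position.

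In size the regions near centromeres resembled the rest. Their median width was 770 bp, with middle quartiles of 402 and 1356 bp, against 762, 412 and 1340 bp for the other 112309 regions. Regions of at least 3 kb made up 3.94% of them (264) and 2.68% of the others. A peak in every list was found for 3671 regions, or 54.8%, and for 57.6% of the others, and on 11 of 12 chromosomes the share near the centromere was the lower one. Chromosome 12 was the exception, with 57.0% against 53.8%. By distance, the share in all 7 lists was 56.0% from 1 to 2 Mb, 54.6% from 2 to 5 Mb and 58.4% beyond 5 Mb. The low share was therefore not particular to the windows. Widths followed breadth, with a median of 266 bp for regions found in 1 list and of 1163 bp for those found in all 7.

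The peaks near centromeres ranked lower in strength. MACS2 gave each peak a fold enrichment over its local background, and each region was described by the percentile of its strongest peak within its own list. In the control list the median region stood at percentile 42.5 near centromeres and at 52.9 elsewhere, and it was lower near the centromere on 12 of 12 chromosomes, where it ran from 35.6 to 48.7. The gap was widest in the salt lists, with 39.6 against 53.0 at 2 h and 39.7 against 53.2 at 6 h. It was narrowest after cold 12 h, with 48.5 against 52.0, and after heat 3 h, with 48.2 against 53.5. Cold 24 h stood at 42.9 against 53.0 and heat 30 min at 44.5 against 52.1. Ranks rather than fold enrichments were compared because the lists differ in scale.

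A few centromere-near regions nevertheless ranked among the strongest of the genome. Among the centromere-near regions, the highest fold enrichment in the control list, 6.41, belonged to a region of 1355 bp on chromosome 8, from 12984896 to 12986250, whose midpoint was 85.6 kb from the centromere position. It had a fold enrichment of 4.58 at cold 12 h, 5.91 at cold 24 h, 5.24 at heat 30 min, 4.56 at heat 3 h, 5.75 at salt 2 h and 4.76 at salt 6 h, and peaks covered between 1253 and 1355 bp of it. The lowest rank it took in any list was percentile 90.8, at salt 6 h. A pair on chromosome 3 followed, at 281 kb (19680170 to 19681120, fold enrichment of 5.96 in the control) and at 128 kb (19527915 to 19528619, 5.36). The first of these was covered over 909 bp in the control and over 576 bp at heat 3 h, and over 796 to 938 bp in the other 5 lists. Its neighbour kept between 619 and 684 bp in all 7 lists. The others were a region on chromosome 1 (16045803 to 16047357, 5.08) and one on chromosome 9 (2516538 to 2517315, 5.03). All 5 had a peak in every list.

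The widest regions were not strong ones in the control. The widest, of 6652 bp on chromosome 3 from 20356384 to 20363035, was covered over 5651 bp in the control, 4880 at cold 12 h, 5641 at cold 24 h, 6227 at heat 30 min, 3330 at heat 3 h, 5528 at salt 2 h and 4476 at salt 6 h. Heat 3 h covered the least of it. The region of 6054 bp on chromosome 8 (12562514 to 12568567) was covered over 5833 bp in the control and 3015 bp at heat 3 h, against 4851 to 6024 bp in the other 5 lists. On chromosome 10 a region of 6420 bp (7219140 to 7225559) ran from 2534 bp at heat 3 h through 3917 bp in the control to 6303 bp at heat 30 min. The remaining wide regions differed less. The one of 6472 bp on chromosome 5 (12913656 to 12920127) was covered over 4069 bp at heat 3 h and 4843 bp in the control, and the one of 6106 bp on chromosome 3 (20103937 to 20110042) over 4848 and 4887 bp. In that list these 5 stood between percentiles 2.64 and 14.6 of fold enrichment.

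The region closest to each centromere position varied in breadth. Of these 12 regions, 5 had a peak in all 7 lists, on chromosomes 2, 3, 5, 8 and 11. Control, cold 12 h and heat 30 min each had a peak in 9 of the 12, cold 24 h in 10, salt 2 h and salt 6 h in 8 and heat 3 h in 7. The broadest was on chromosome 5, of 3107 bp from 12397413 to 12400519, with 1921 bp covered in the control, 3107 bp at heat 30 min and 2009 bp at heat 3 h. On chromosome 8 the closest region (12897792 to 12898648) was covered over 828 bp in the control but 391 bp at heat 3 h and 452 bp at salt 6 h. Elsewhere the innermost regions were thin or partial. The one on chromosome 6 (15299015 to 15300543) had peaks in the control, both cold lists and heat 30 min. That on chromosome 1 (16699570 to 16700386) had peaks at cold 12 h, cold 24 h and heat 30 min. On chromosome 10 (8200428 to 8200812) salt 6 h alone lacked a peak. Chromosome 4 (9695891 to 9696324) lacked cold 12 h and heat 30 min, and chromosome 7 (12113745 to 12114081) lacked cold 12 h and heat 3 h. On chromosome 9 the closest region lay at -51.2 kb (2748674 to 2748995) and had a peak at salt 6 h only, and on chromosome 12 (11899233 to 11899783) at cold 12 h only. The fully shared regions of chromosomes 2 (13599994 to 13601104), 3 (19405341 to 19407346) and 11 (12002100 to 12003102) were covered over 970 to 1111, 723 to 1899 and 339 to 991 bp.

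The lists were then compared for presence. They differ in length, with 99518 peaks in the control, 110010 at cold 12 h, 102210 at cold 24 h, 108147 at heat 30 min, 91083 at heat 3 h, 97058 at salt 2 h and 87437 at salt 6 h, and the part of sequencing depth in these lengths was not tested. In the control, 5309 of the 6700 regions had a peak, or 79.2%, with a 95% Wilson interval from 78.3% to 80.2% that covers counting error only. The share among the other regions was 77.5%. Near centromeres it was highest at heat 30 min, with 82.8% (81.9% to 83.7%), and at cold 12 h, with 82.4% (81.4% to 83.3%), yet elsewhere these lists reached 86.0% and 87.4%. Cold 24 h had 79.5% near centromeres and 79.5% elsewhere. Both salt lists had the larger share near centromeres, with 78.2% against 75.6% at 2 h and 70.1% against 67.6% at 6 h. Heat 3 h had the smallest, 66.1% (64.9% to 67.2%), against 69.7% elsewhere. The order of heat 3 h and salt 6 h was therefore opposite in the 2 parts of the genome, since salt 6 h had the lowest share elsewhere. These shares depended on list length, and with the same number of peaks in every list heat 3 h had 70.5%, heat 30 min 70.4% and salt 6 h 77.4%.

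Covered bases separated heat 3 h further. Control peaks covered 4.91 Mb of the centromere-near regions, cold 12 h 5.23 Mb, cold 24 h 4.93 Mb, heat 30 min 5.31 Mb, heat 3 h 3.70 Mb, salt 2 h 4.86 Mb and salt 6 h 4.04 Mb. As deposited, the heat 3 h list thus covered the least there and the heat 30 min list the most. As a percentage of control, heat 3 h came to 75.4% near centromeres and 85.0% elsewhere. Cold 12 h came to 106% and 117%, heat 30 min to 108% and 115%, and cold 24 h to 100.5% and 103%. For the salt lists the values of both parts were close in the lists as deposited, with 99.0% and 97.8% at 2 h and 82.2% and 82.9% at 6 h. Heat 3 h covered more than salt 6 h outside the windows, with 66.2 Mb against 64.5 Mb, and less inside them. With 1 list per condition none of these differences could be tested, and with equal numbers of peaks per list the centromere-near value was 85.3% at heat 3 h, 95.4% at salt 6 h and 102% at cold 12 h, and lay on the other side of the control for cold 24 h (98.1%), heat 30 min (100%, just below) and salt 2 h (101%). Heat 30 min was then no longer the highest. With equal numbers the gap to the other regions, in points of percent of control, went from -9.62 to -5.87 for heat 3 h and turned from -0.727 to 4.24 for salt 6 h.

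For the cold and heat lists the single chromosomes went the same way. At heat 3 h the percentage of control ran from 69.9% on chromosome 4 to 79.6% on chromosome 9 near the centromeres, and the rest of the chromosomes from 84.5% to 85.6%, so the ranges did not overlap. The windows were below the rest of their own chromosome on 12 of 12 chromosomes for both cold and both heat lists, on 2 for salt 2 h and on 5 for salt 6 h. At cold 12 h the windows ran from 101% on chromosome 3 to 112% on chromosome 1, and the rest from 115% to 121%. Heat 30 min gave 104% to 111% in the windows and 114% to 117% elsewhere, and cold 24 h 99.4% to 102% and 103% to 104%. In the salt lists the ranges overlapped. Salt 6 h gave 77.7% to 84.9% near centromeres and 81.6% to 84.4% elsewhere. On both sides of the centromere, heat 3 h was below the control in all 24 half-windows, between 67.9% and 80.9%. Heat 30 min was above it in all 24, between 101% and 115%. The rest of each chromosome lay on the same sides of the control. Not every half-window was below the rest of its chromosome. At heat 30 min the right side of chromosome 5 came to 115%, and the rest of that chromosome to 114.4%. Chromosomes share their libraries and are not replicates.

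**Figure D3:**
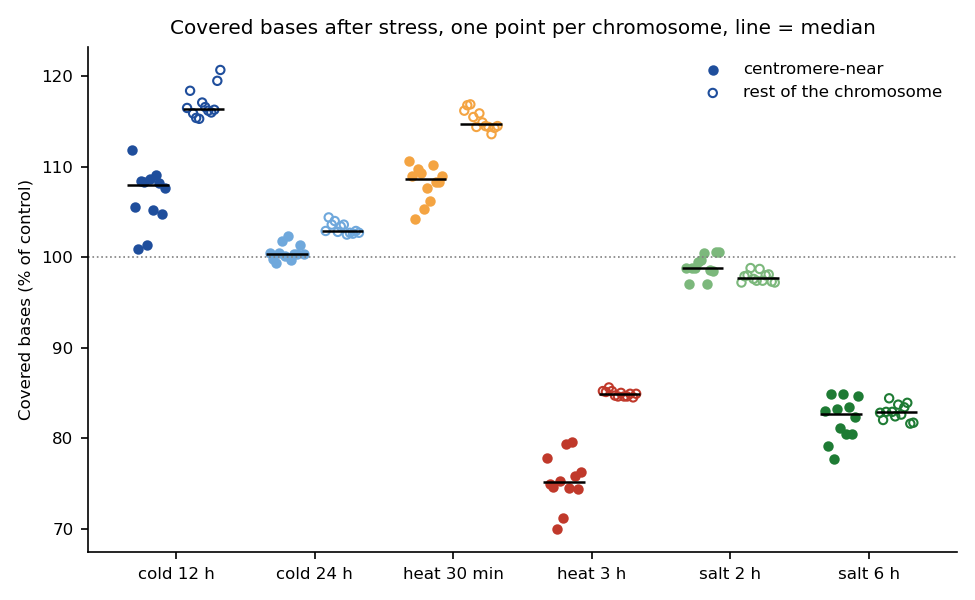
Covered bases of each stress list as a percentage of the control list, 1 point per chromosome, for centromere-near regions (filled) and for the rest of the chromosome (open); lines are medians over 12 chromosomes and the vertical axis does not start at 0. At heat 3 h the filled points lie between 69.9% and 79.6% and the open points between 84.5% and 85.6%.

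Regions were next sorted into those gained, with a stress peak and no control peak, and those lost, with a control peak and no stress peak. Cold 12 h gained 805 centromere-near regions, or 12.0% (Wilson interval 11.3% to 12.8%), where the share over all 119009 regions was 15.4%. Heat 30 min gained 633 (9.45%) against 11.8% over all regions. In these lists new open chromatin was thus less frequent near centromeres than in the genome at large. From 1 to 2 Mb, 2 to 5 Mb and beyond 5 Mb, cold 12 h gained 13.6%, 15.3% and 15.9%. Heat 30 min gained 9.55%, 10.8% and 12.4% there, so its share from 1 to 2 Mb was close to that of the windows. Cold 24 h gained 408 (6.09%) against 6.03%, and heat 3 h 345 (5.15%) against 4.76%. The salt lists gained 325 (4.85%) at 2 h against 3.54% and 302 (4.51%) at 6 h against 3.17%, both above the genome-wide share. The bands from 1 to 2 Mb and 2 to 5 Mb were above it as well, with 4.21% and 4.21% at 2 h and 4.14% and 4.20% at 6 h. Beyond 5 Mb the gains were 3.21% and 2.73%. Gained regions were small, with a median of 236 to 355 covered bp over the 6 lists, and weak, with a median percentile of 11.1 to 23.0 in their own list.

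Losses were most numerous at heat 3 h, which lacked 1227 regions that the control had, or 18.3% (17.4% to 19.3%), against 12.9% over all regions. On single chromosomes the share ran from 15.1% to 22.5%. Salt 6 h lost 912 (13.6%, 12.8% to 14.5%) against 13.0%, a difference within its interval. Cold 12 h lost 595 (8.88%) against 5.87%, cold 24 h 390 (5.82%) against 4.13% and heat 30 min 396 (5.91%) against 3.58%. Each of these 3 lists lost more often near centromeres than over all regions, with intervals starting at 8.22%, 5.29% and 5.37%. Salt 2 h lost 395 (5.90%) against 5.37%, with an interval from 5.36% to 6.49% that just holds it. All these intervals cover counting error only. Regions are not replicates of a condition, and no difference was tested. The regions lost at heat 3 h were a median of 321 bp wide in the control and stood at percentile 19.9 there. The longest run of neighbouring control regions that were all lost counted 5 at heat 3 h, over 23.1 kb of chromosome 8 from 11992256 to 12015381. It counted 3 or 4 in the other lists. Whether losses were scattered or clustered was not tested. With equal numbers of peaks heat 3 h lost 14.5% and gained 10.8%, heat 30 min lost 11.4%, cold 24 h lost 8.88%, and salt 6 h gained 13.1% and lost 9.86%. These are centromere-near shares. The shares over all regions were not computed in that setting, so the 2 could not be compared there.

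**Figure D4:**
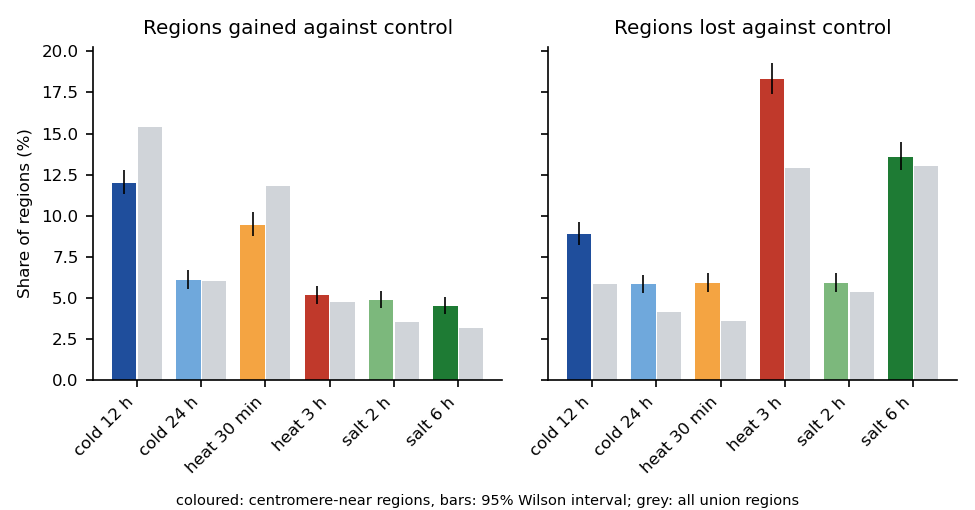
Share of regions gained (left) and lost (right) against the control list for each stress list; coloured bars are the 6700 centromere-near regions with 95% Wilson intervals and grey bars all 119009 regions. The bar of heat 3 h losses stands at 18.3% beside 12.9%, and that of cold 12 h gains at 12.0% beside 15.4%.

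Where both lists had a peak, its extent was compared, and a region counted as widened or narrowed when its covered bases differed from the control by at least 1.5 times. Heat 3 h narrowed 958 of 4082 such regions, or 23.5%, against 16.0% of all regions with a peak in both lists, and widened 245 (6.00%) against 5.61%. Salt 6 h narrowed 843 of 4397 (19.2%) against 16.1% and widened 204 (4.64%) against 3.23%. Narrowing was the commoner change in these lists. Cold 12 h widened 648 of 4714 (13.7%) against 16.2% and narrowed 460 (9.76%) against 6.24%. Heat 30 min widened 554 of 4913 (11.3%) against 13.1% and narrowed 268 (5.45%) against 3.25%. In both of these lists widening prevailed, but less so near centromeres than over all regions. Cold 24 h widened 325 of 4919 (6.61%) against 6.86% and narrowed 297 (6.04%) against 4.04%. Salt 2 h widened 256 of 4914 (5.21%) against 4.01% and narrowed 324 (6.59%) against 5.45%. Among the 3671 regions open in all 7 lists, the median covered length was 918 bp in the control, 946 bp at cold 12 h, 924 bp at cold 24 h, 964 bp at heat 30 min, 751 bp at heat 3 h, 914 bp at salt 2 h and 791 bp at salt 6 h. The median ratio to the control was 0.909 at heat 3 h near centromeres and 0.935 elsewhere, and 0.954 and 0.949 at salt 6 h.

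Over 7 bands of distance, the heat 3 h value was lower nearer the centromere. Its covered bases were 73.6% of control within 0.25 Mb of the centromere position, 73.9% from 0.25 to 0.5 Mb, 76.5% from 0.5 to 0.75 Mb and 77.3% from 0.75 to 1 Mb. Outside the limit they were 80.5% from 1 to 2 Mb, 81.9% from 2 to 5 Mb and 86.0% beyond 5 Mb. Each of these bands was above the one inside it, while single 100 kb bins went up and down, as from 74.6% in the first to 71.4% in the second and from 79.9% at 700 to 800 kb to 73.8% at 800 to 900 kb. Cold 12 h also stepped up at each band, from 104% within 0.25 Mb to 118% beyond 5 Mb, and heat 30 min went from 108% to 117% with a low of 106% in the second band. Salt 6 h had no such order as deposited, with values between 80.4% and 84.0% inside the limit and of 83.7%, 82.8% and 82.8% outside it. The share of regions lost at heat 3 h went from 20.3% within 0.25 Mb to 11.8% beyond 5 Mb, and that at cold 12 h from 10.9% to 5.22%. With equal numbers of peaks heat 3 h had 85.3% within 1 Mb, 88.3% from 1 to 2 Mb, 87.9% from 2 to 5 Mb and 92.2% beyond, so the innermost band stayed the lowest and the outermost the highest, and the middle bands changed places. Salt 6 h then had 95.4%, 93.6%, 90.7% and 91.0% in these bands, with the highest value nearest the centromere.

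**Figure D5:**
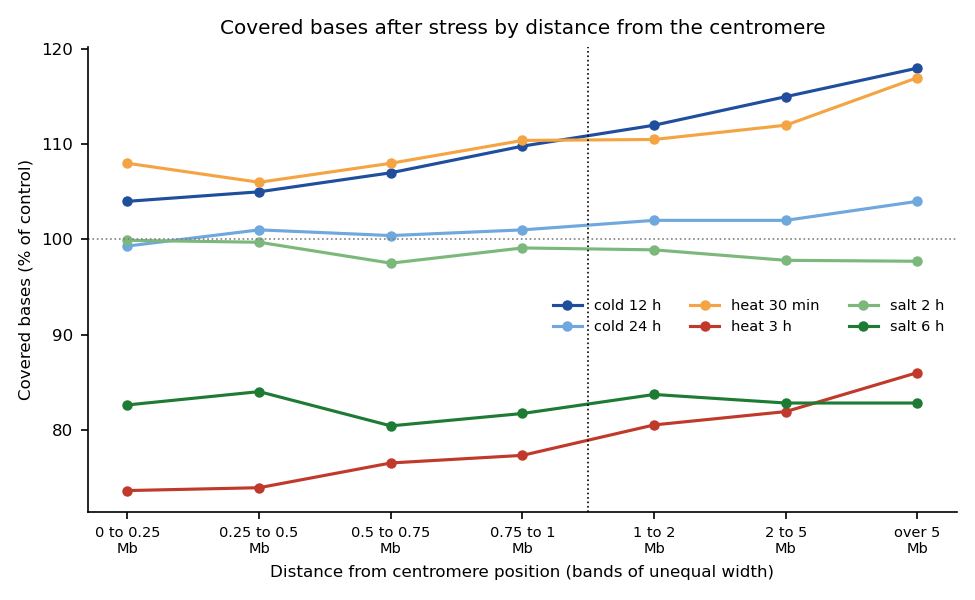
Covered bases of each stress list as a percentage of the control list (vertical axis, not starting at 0) in 7 bands of distance from the centromere position, 12 chromosomes pooled; the dotted vertical line marks 1 Mb. Heat 3 h goes from 73.6% in the innermost band to 86.0% beyond 5 Mb, and salt 6 h stays between 80.4% and 84.0%.

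Centromere-near regions were weaker in the control, and weak regions were lost more often. The values were also laid out within 4 equal classes of the control list, ordered by fold enrichment. This division was made after the values had been seen. Of the regions with a control peak, 30.9% near centromeres and 22.5% elsewhere fell in the weakest class, and 19.4% and 27.0% in the strongest. In the weakest class heat 3 h covered 59.2% of the control near centromeres and 67.0% elsewhere. In the next 3 classes it covered 68.7% and 77.3%, 79.1% and 86.1%, and 89.8% and 93.4%. The centromere-near value was the lower one in each of the 4 classes. Strength was not matched within a class, and the lists were used as deposited. The part of strength in the difference was not tested. Cold 12 h gave 87.1% and 93.7% in the weakest class and 112% and 115% in the strongest, also lower near centromeres in all 4. Salt 6 h gave 73.8% and 73.3%, 78.4% and 78.6%, 82.8% and 82.9%, and 88.1% and 87.5%, which were close in each class. The share of control regions lost at heat 3 h was 43.5% near centromeres and 36.6% elsewhere in the weakest class, and 24.7% and 21.1%, 11.7% and 9.12%, and 1.85% and 1.57% in the next 3. At salt 6 h it was 31.5% and 35.7%, 18.8% and 22.5%, 9.02% and 10.2%, and 1.65% and 2.04%. Within classes, losses were thus more frequent near centromeres at heat 3 h and less frequent at salt 6 h. Without classes, salt 6 h lost 13.6% of all centromere-near regions and 13.0% of all others. Those shares also count regions without a control peak, so they have another base than the class values.

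Each region was also described by the combination of lists in which it appeared. Of 127 possible combinations 109 occurred, and the 6 most frequent held 4955 regions. After the 3671 regions open everywhere, the largest group was that missing from heat 3 h alone, with 347 regions (5.18%), against 3.19% of the other regions. It was followed by regions found at cold 12 h alone, with 335 (5% against 6.33%), by those missing from both heat 3 h and salt 6 h, with 226 (3.37% against 2.66%), by those missing from salt 6 h alone, with 198 (2.96% against 4.02%), and by those found at cold 12 h and heat 30 min alone, with 178 (2.66% against 3.95%). Elsewhere in the genome the group missing from salt 6 h alone was thus the larger of the single absences, and near centromeres that missing from heat 3 h alone. Regions found in the control alone numbered 108 (1.61% against 0.824%). Those missing from cold 12 h and heat 3 h together numbered 71 (1.06% against 0.579%). Heat 30 min alone had 125 (1.87% against 2.19%) and heat 3 h alone 51 (0.761% against 0.549%). Salt 6 h alone had 48 (0.716% against 0.635%), salt 2 h 46 (0.687% against 0.307%) and cold 24 h 37 (0.552% against 0.363%). Regions missing from cold 12 h alone numbered 61 (0.910% against 0.789%), and from the control alone 22 (0.328% against 0.238%). Those missing from heat 30 min alone numbered 15 (0.224% against 0.242%), from cold 24 h 7 (0.104% against 0.0801%) and from salt 2 h 4 (0.0597% against 0.0267%).

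Regions missing from a single list had a median width of 720 bp near centromeres, and the strongest example of each such absence is given here. The strongest of the 347 regions missing from heat 3 h lay at -92.6 kb on chromosome 2, from 13507204 to 13507518. Its fold enrichment was 2.97 in the control, 2.60 at cold 12 h, 3.54 at cold 24 h, 3.29 at heat 30 min, 3.18 at salt 2 h and 4.32 at salt 6 h, over 265 to 304 covered bp. It ranked at percentile 73.3 or higher in each of these 6 lists and had no peak at heat 3 h. The strongest missing from salt 6 h alone, on chromosome 9 from 3340922 to 3341967, was covered over 981 bp at cold 12 h and over 235 to 528 bp in the other 5 lists. The strongest missing from cold 12 h alone lay on chromosome 2 from 14551044 to 14551360, and was covered over 214 to 309 bp. Among the 22 regions missing from the control alone, the strongest was on chromosome 2 from 13246616 to 13247318, with 321 bp at cold 12 h, 702 bp at cold 24 h, 501 bp at heat 30 min, 682 bp at heat 3 h, 572 bp at salt 2 h and 590 bp at salt 6 h. This region lay at -353 kb. The strongest regions missing from a single other list were on chromosome 7 from 11747387 to 11747938 for cold 24 h, on chromosome 12 from 12831165 to 12831761 for heat 30 min and on chromosome 3 from 19861384 to 19861696 for salt 2 h, where 222 to 274 bp were covered in the lists that had it.

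Regions of a single list were narrower, with a median width of 266 bp, and the strongest of each covered between 210 and 319 bp. Heat 30 min had the one of highest rank, on chromosome 6 from 15171964 to 15172238, with a fold enrichment of 2.95 at percentile 90.2 of its list. The one of salt 2 h, on chromosome 11 from 12266421 to 12266739, had 3.30 at percentile 77.1. That of cold 12 h, on chromosome 4 from 9376974 to 9377287, had 2.22 at percentile 74.3, and that of the control, on chromosome 5 from 12469296 to 12469542, had 2.73 at percentile 70.2. The remaining lists had theirs nearer the middle of the ranks. Heat 3 h had 2.85 at percentile 66.3 on chromosome 7 (12526439 to 12526665), cold 24 h 2.46 at percentile 54.8 on chromosome 11 (12558772 to 12558981) and salt 6 h 2.87 at percentile 45.2 on chromosome 4 (9238409 to 9238637). Regions shared by both lists of a stress and by no other list were rare both near centromeres and elsewhere. They numbered 11 for cold (0.164% against 0.172% of the other regions), 2 for heat (0.0299% against 0.0481%) and 24 for salt (0.358% against 0.232%). Their strongest examples were on chromosome 10 (9058173 to 9058486) for cold, on chromosome 7 (12680114 to 12680390) for heat and on chromosome 3 (20036547 to 20036760) for salt.

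Finally, the likeness of each stress list to the control was measured inside the centromere-near regions as the Jaccard index, the bases covered in both lists over the bases covered in either. It was 0.798 at salt 2 h, 0.785 at cold 24 h, 0.747 at heat 30 min, 0.679 at salt 6 h, 0.668 at cold 12 h and 0.597 at heat 3 h. Outside the windows it was 0.832, 0.812, 0.755, 0.725, 0.677 and 0.689. As deposited, heat 3 h was therefore the list least like the control near centromeres and cold 12 h elsewhere. The index also falls where 2 lists differ in covered bases, and it was not computed with equal numbers of peaks. Per chromosome the heat 3 h index ran from 0.568 to 0.634 in the windows and was below that of the rest of the chromosome on 12 of 12. The same held on 12 chromosomes for cold 24 h and both salt lists, on 8 for cold 12 h and on 7 for heat 30 min.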

How the data were processed

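FAIRE-seq was analysed for 14 libraries of 7 conditions. The RNA-seq libraries were not used here. Per the study's methods, the authors used Bowtie2 for alignment to IRGSP 1.0, filtered reads on mapping score and on overlap with organelle insertions, counted duplicate reads once, and called broad peaks with MACS2, whose version is not given in the sources used here. Peaks with few reads in a replicate were then dropped in the study, and whether the deposited lists come before or after that step is not stated. Whether replicates were pooled before calling is not stated. Each deposited peak carries a fold enrichment (a ratio over local background) and a −log10 q, which MACS2 computed in the authors' run and which were used only to rank or filter peaks within a list. The lists hold no read counts, so read depth per region is unknown.

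Peaks of the 7 lists were merged, and bedtools 2.31.1 merge gave the same coordinates for all 119009 regions. A list was present in a region when it shared at least 1 bp. No test was run, because each condition has 1 list. Wilson intervals (95%) cover counting error only. The merging and counting functions were tested on 6000 simulated regions and recovered 11 of 11 known quantities. The half-width of 1 Mb, the centromere positions and all comparisons were chosen with earlier results of these data known. Single regions were named by rule: the one nearest each centromere position, the 5 widest, the 5 of highest control fold enrichment, and the strongest of each single appearance, single absence and same-stress pair. Alternatives were windows of 0.5 and 2 Mb, a −log10 q of at least 2, equal numbers of peaks, 50% of a region covered, and leaving out each chromosome. Python 3.11.15, numpy 2.4.6, pandas 2.3.3, scipy 1.17.1 and matplotlib 3.10.9 were used.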

Additional observations from a re-analysis of the deposited data

Results flagged for a closer look

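Near the centromeres the heat lists stood on opposite sides of the control, as they did over the rest of each chromosome. That rest ran from 114% to 117% of control at heat 30 min and from 84.5% to 85.6% at heat 3 h. In the windows, peaks covered 108% of the control bases at heat 30 min, above the control on 12 of 12 chromosomes. At heat 3 h they covered 75.4%, below it on 12 of 12. No test of this difference was possible with a single list per time, and it was not tested. With equal numbers of peaks per list, heat 30 min came to 100%, just below the control, and heat 3 h to 85.3%. The heat lists were then no longer on opposite sides.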

How the results depend on the processing

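A percentage of regions was taken as moved when it left its Wilson interval, and covered bases when they moved by over 1 SD across chromosomes, which is not a replicate error. Leaving out each chromosome in turn moved none of the 12 covered-base results, in 144 values. Under the other settings 73 values stayed, 63 moved and 7 changed sides. Gained and lost shares over all regions were not computed under these settings. Leaving out a replicate was not run, since the lists are not split by replicate. No paired analysis was possible because each condition has a single list without replicate numbers. The cause of the shifts was not tested. The comparison of centromere-near with other regions in points was added after the data were seen, and its sign was kept for cold 12 h, cold 24 h, heat 30 min, heat 3 h and salt 2 h in every setting.

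With equal numbers of peaks (87437 per list, 6137 centromere-near regions), a setting that evens out list length by construction, the share with a peak became 74.1% (control), 71.4% (cold 12 h), 72.0% (cold 24 h), 70.4% (heat 30 min), 70.5% (heat 3 h), 74.6% (salt 2 h) and 77.4% (salt 6 h). The gained share became 10% (cold 12 h), 6.73% (cold 24 h), 7.64% (heat 30 min), 10.8% (heat 3 h), 6.96% (salt 2 h) and 13.1% (salt 6 h). The lost share became 12.7% (cold 12 h), 8.88% (cold 24 h), 11.4% (heat 30 min), 14.5% (heat 3 h) and 9.86% (salt 6 h). Covered bases became, in percent of control, 102% for cold 12 h, 98.1% (cold 24 h), 100% (heat 30 min), 85.3% (heat 3 h), 101% (salt 2 h) and 95.4% (salt 6 h). The distance from the other regions became -5.87 points for heat 3 h and 4.24 (salt 6 h), from -9.62 and -0.727.

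When at least 50% of a region had to be covered, the share with a peak became 70.3% (control), 75.2% (cold 12 h), 70.7% (cold 24 h), 76.1% (heat 30 min), 50.7% (heat 3 h), 68.5% (salt 2 h) and 55.6% (salt 6 h). The gained share became 17.9% (cold 12 h), 9.04% (cold 24 h), 14.1% (heat 30 min), 7.25% (heat 3 h), 7.12% (salt 2 h) and 6.12% (salt 6 h), and the lost share 13.0%, 8.57%, 8.34%, 26.9%, 8.85% and 20.8% in the same order.

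In the window of 0.5 Mb (3191 regions) cold 12 h had 80.8% with a peak and 11.0% gained, the lost share became 9.78% (cold 12 h), 6.58% (cold 24 h), 6.64% (heat 30 min) and 19.4% (heat 3 h), and salt 6 h stood 0.545 points above the other regions. In the window of 2 Mb (14115 regions) cold 12 h had 83.6% with a peak and 12.8% gained, the lost share became 8.07% (cold 12 h), 5.24% (cold 24 h) and 16.8% (heat 3 h), and salt 6 h stood 0.0845 points above.

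With a −log10 q of at least 2 (6411 regions), the share with a peak became 79.8% (cold 12 h), 64.7% (heat 3 h), 79.8% (salt 2 h) and 71.8% (salt 6 h). The gained share became 10.9% (cold 12 h), 6.21% (salt 2 h) and 5.57% (salt 6 h), the lost share 9.84% (cold 12 h), 19.5% (heat 3 h), 5.10% (salt 2 h) and 12.5% (salt 6 h), and covered bases 101% of control for salt 2 h.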
